A study of Mus musculus with 4 samples.

Results

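The annexins are a family of calcium-dependent membrane-binding proteins, and several of them are known partners of the small S100 proteins. The 9 annexin genes Anxa1 to Anxa8 and Anxa11 were taken by symbol from a table of 21090 mouse genes, by a rule that uses no measured value. All 9 were listed in the table, and 8 had a mean of at least 1 RPKM (reads normalized for gene length and for the depth of the library) over the libraries and entered the test, all but Anxa8. RNA sequencing (RNA-seq) covered 4 cell lines from mouse mammary tumor tissue, each represented by 1 library. The controls were the parental cells and cells with the vector control, and in the knockouts S100a4 was cut by CRISPR in exon 3 (the exon 3 line) or in exon 2 (the exon 2 line). The methods trace the knockout lines to cells grown from the primary tumor of a mouse that also had lung metastasis, in which MMTV-Cre switched on an activated mutant Pik3ca and a dominant-negative mutant Trp53 in the mammary gland, on a C57BL/6 background. For the knockouts, a lentivirus brought in Cas9 with the guide, and infected cells were selected with puromycin; the labels do not say how the vector control was made. Whether a line was grown from a single clone is not given in the sources used here. The titles give the cell number 307 for 3 libraries, but 308 for the exon 2 line, and whether these are the same cells is not given in the sources used here. With 1 library per line, every p-value below measures only the spread between these lines, and the test takes much of it from other genes.

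An annexin has a conserved core of repeats that binds acidic phospholipids when calcium rises, and a short amino-terminal head that differs between members and binds other proteins. The S100 proteins are calcium sensors that dock mainly on these heads, S100a10 on Anxa2 and S100a11 on Anxa1 being the best known pairs, and S100a4 is also known to bind Anxa2. Annexins carry membranes through vesicle traffic, help to reseal a torn plasma membrane and, in the case of Anxa2 at the surface of tumor cells, help to activate plasminogen.

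The heads set which partner an annexin binds, so the first 30 coding bases of the best known S100 partners, Anxa1 and Anxa2, and of the 2 annexins with long heads that bind penta-EF-hand proteins, Anxa7 and Anxa11, are shown (GENCODE M21 transcripts on GRCm38, 5′ to 3′, start codon in capitals).
Anxa1: ATGgcaatggtatcagaattcctcaagcag
Anxa2: ATGtctactgtccacgaaatcctgtgcaag
Anxa7: ATGtcatacccaggctatccccccaccggc
Anxa11: ATGagctacccaggctaccctccacctgcc
These stretches lie in exon 2 of each gene, at chr19:20384729-20384758 on the minus strand for Anxa1, chr9:69464477-69464506 on the plus strand for Anxa2, chr14:20473299-20473328 on the minus strand for Anxa7 and chr14:25868872-25868901 on the plus strand for Anxa11. Anxa7 and Anxa11 had the same base at 21 of the 30 positions, and Anxa1 and Anxa2 at 16 of 30. Over aligned coding bases, gaps left out, identity between members ran from 54.4% for Anxa2 with Anxa7 to 65.0% for Anxa5 with Anxa6. The latter covers 957 aligned bases, while the coding sequence of Anxa6 has 2022. Anxa11 also had near-identical copies elsewhere, and 657 of its bases were 100% identical to the pseudogene Gm2260 and 602 to the pseudogene Gm2274. Gm2260 was listed at 0 in every library and Gm2274 only in the vector control, at 0.0858 RPKM. How reads shared with these copies were counted is not given in the sources used here, which leaves the level of Anxa11 uncertain. Exons of Anxa2, Anxa4 and Anxa11 overlap a gene on the opposite strand over 98, 75 and 113 bases, and those of Anxa3 overlap Gm42603 on the same strand over 112 bases.

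The RPKM values rested on 22472024 to 31235456 reads per library, most in the parental cells and fewest in the exon 2 line. The targeted gene, S100a4, stood at 3576 RPKM in parental cells and 4741 with the vector. Its transcript was at 1136 RPKM in the exon 3 line and 1105 in the exon 2 line, lower without being lost. RPKM does not tell intact from mutated transcripts. The authors report truncating mutations in most S100a4 transcripts of the knockout lines, and loss of the protein by Western blot. Of the 9 markers of the epithelium, 7 including Epcam and Cdh1 stayed under 1 RPKM in all 4 libraries, while the keratin genes Krt8, at 27.5 to 78.9 RPKM, and Krt18, at 6.10 to 60.2 RPKM, were present in each. The mesenchymal filament gene Vim lay between 1360 and 2420 RPKM. The summed level of the 9 epithelial markers was 129.9 RPKM in parental cells, 34.7 with the vector, 107 in the exon 3 line and 74.9 in the exon 2 line. For the 11 mesenchymal markers it was 6004, 3293, 3141 and 3000 in the same order, so the sum was highest in the parental line. Zeb1, at 19.5 RPKM, and Zeb2, at 11.5 RPKM, were highest in the vector control. Cdh2, at 49.4 RPKM, was highest in the exon 2 line, and the rest were highest in parental cells. Of the immune markers, Cd3e and Emr1 were at 0 in all libraries and Ptprc reached at most 0.0101 RPKM; the summed immune level, 7.15 to 34.5 RPKM, came almost wholly from Cd14 and was highest in the vector control. The 4 endothelial markers summed to at most 0.443 RPKM. Of 3 adipocyte markers, Adipoq and Plin1 were at 0 and Fabp4 was at 90.9 RPKM in the parental line and 2.68 to 5.61 RPKM in the others.

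The annexins fell into an abundant trio and a tail that reached down to a gene that was all but silent. Anxa2, which carries S100a10, had the highest mean level, 1219 ± 112 RPKM (SD, n = 4 libraries), followed by Anxa1, the glucocorticoid-induced annexin known from inflammation, at 973 ± 125 RPKM and Anxa5, the phosphatidylserine binder used to stain dying cells, at 843 ± 110 RPKM. These 3 genes made up 84.0% of the summed annexin RPKM in parental cells, 85.5% with the vector, 84.5% in the exon 3 line and 80.6% in the exon 2 line. Anxa3 followed at 257 ± 86.3 RPKM. Anxa4, an annexin typical of secretory epithelia, stood at 136 ± 36.9 RPKM and Anxa6, the member with the longest core, at 96.3 ± 22.4 RPKM. Anxa7 had 59.7 ± 9.61 RPKM and Anxa11 45.1 ± 3.56 RPKM. Anxa8 was detected by 1 read in the vector control, 0.0400 RPKM, and by none in the other libraries, where a count of 0 allows up to 0.0976 RPKM in the parental line, 0.130 in the exon 3 line and 0.136 in the exon 2 line (3 reads, counting error only).

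Not every step of this order was larger than the spread between libraries. The ranges did not overlap between Anxa2 and Anxa1, Anxa5 and Anxa3, Anxa6 and Anxa7, or Anxa11 and Anxa8. In the parental line Anxa2 and Anxa1 were close, at 1069.7 and 1059.5 RPKM, with counting intervals that overlapped. Anxa1 and Anxa5, Anxa4 and Anxa6, and Anxa7 and Anxa11 kept their order in 3 of 4 libraries. Anxa3 was above Anxa4 in 4 of 4 libraries, but the lowest Anxa3 value, 167 RPKM in the exon 3 knockout, was below the highest Anxa4 value, 184 RPKM in the exon 2 knockout.

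**Figure D1:**
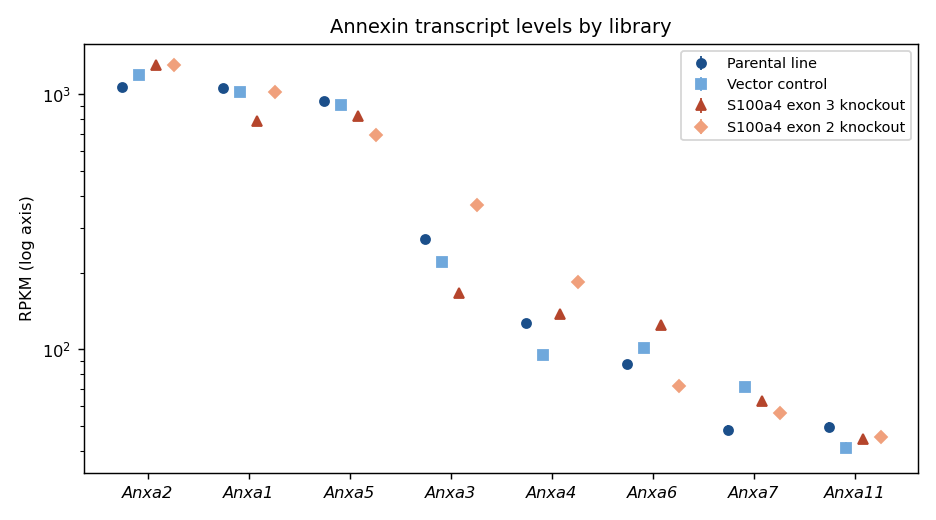
Level of the 8 tested annexins in the 4 libraries, in RPKM on a log axis. Each point is 1 library, in order of mean level, with 95% counting intervals that are mostly smaller than the symbols; Anxa8 is left out because a log axis has no 0. Anxa2, Anxa1 and Anxa5 lie between 696 and 1308 RPKM in every library, and Anxa11 between 41.0 and 49.7 RPKM.

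As a family the annexins took a similar amount of the RNA in each line. Their summed level was 3655 RPKM in parental cells, 3654 with the vector, 3454 in the exon 3 line and 3756 in the exon 2 line, so the knockouts lay on either side of the controls. This was between 0.605% and 0.764% of all RPKM in a library, with the parental line highest and the exon 3 knockout lowest. The reads behind the family ranged from 85838 to 119150 per library, and those behind a tested member from 1538 for Anxa11 in the exon 2 line to 34451 for Anxa1 in parental cells.

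The main comparison asked which annexins differed between the lines without and with intact S100a4. In limma's moderated test on log2(RPKM + 1), with Benjamini-Hochberg adjustment over 10871 genes, 0 of the 8 tested annexins passed an adjusted p of 0.05, where 0.0184% of all tested genes did, and their adjusted p ran from 0.367 to 0.995. At an unadjusted p of 0.05 the count was also 0 of 8, against 19.1% of all tested genes, and limma voom on the recovered reads gave 0 by either measure. No annexin was at least 2-fold apart in any of the 4 pairs of a knockout with a control, against 34.2% of all tested genes. In all 4 pairs, 1.73% of tested genes reached that limit downwards and 0.267% upwards. All tested genes reach down to a mean of 1 RPKM, while the tested annexins had means of 45.1 to 1219 RPKM. Shares over genes of like level were not counted. Differences below are knockouts minus controls on the log2(RPKM + 1) scale, which understates folds of low genes. For a single gene, an exact permutation test of 2 against 2 libraries cannot give a two-sided p below 0.333. On simulated data of the same size the test called 0% of genes made to differ by 1 on the log2 scale and 30% of those made to differ by 2, so a miss does not show that levels were equal.

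Anxa2 was the most abundant annexin in all 4 libraries and stood higher in the knockouts as deposited, although quantile normalization turned the sign to -0.049. Its level was 1069.7 RPKM in parental cells, 1194 with the vector, 1304 in the exon 3 line and 1308 in the exon 2 line. Both knockouts lay above both controls, and the knockouts differed from each other by far less than the controls did. The mean was 1132 ± 88.0 RPKM in the controls and 1306 ± 2.83 RPKM in the knockouts (SD, n = 2 each), a difference of 0.21 (SE 0.296, 95% interval -0.44 to 0.86, limma adjusted p = 0.721). Anxa2 lies on chr9:69453620-69491795 (plus strand).

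Anxa1, whose head binds S100a11, was lower in the exon 3 knockout alone. It had 1059.5 RPKM in parental cells, 1021 with the vector, 788 in the exon 3 line and 1025 in the exon 2 line, where the last value fell between the controls. The means were 1040.3 ± 27.2 RPKM in the controls and 907 ± 168 RPKM in the knockouts. The difference was -0.21 (SE 0.303, 95% interval -0.88 to 0.45, limma adjusted p = 0.724), less than the difference between the knockouts themselves, and it was -0.021 without the exon 3 line. Anxa1 lies on chr19:20373428-20390944 (minus strand).

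Anxa5 was the member with both knockouts below both controls. The parental line had 943 RPKM, the vector control 909, the exon 3 knockout 826 and the exon 2 knockout 696. The controls lay close together and the exon 2 knockout was the lowest library. The knockout mean, 761 ± 92.3 RPKM, was 82.2% of the control mean, 926 ± 23.4 RPKM, a difference of -0.29 (SE 0.296, 95% interval -0.94 to 0.36, limma adjusted p = 0.609). It was -0.16 without the exon 2 line, -0.08 after correction for GC and length and -0.55 with quantile normalization. Anxa5 lies on chr3:36448923-36475894 (minus strand).

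Anxa4 had the largest difference of the tested annexins. It stood at 127 RPKM in parental cells, 95.3 with the vector, 137 in the exon 3 line and 184 in the exon 2 line. Both knockouts were above both controls, but the exon 3 knockout was only a little above the parental line, and the 4 pairs differed by 0.12 to 0.95. The means were 111 ± 22.3 RPKM in the controls and 161 ± 33.2 RPKM in the knockouts, 1.44-fold apart (95% interval 0.900 to 2.32), a difference of 0.53 (SE 0.311, limma adjusted p = 0.367). Leaving out a library moved the difference between 0.32 and 0.74. It was also the only member whose 95% interval reached 2-fold. For the other 7 the interval stayed within 2-fold in both directions, with a width set largely by the spread of other genes. Anxa4 lies on chr6:86736840-86793584 (minus strand).

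Anxa3 and Anxa6 had knockouts on either side of both controls, which 7.88% of tested genes had. Anxa3, whose role is less well known, was at 270.5 RPKM in parental cells, 220.4 with the vector, 167 in the exon 3 line and 369.6 in the exon 2 line. The exon 3 knockout was the lowest library and the exon 2 knockout the highest. The exon 2 value was 2.22-fold the exon 3 value, a log2 difference of 1.14, and 4.99% of tested genes differed by at least 2-fold between the knockouts. Anxa6, a large annexin that binds the Ras regulator Rasa1 and protein kinase C alpha, had 87.7 RPKM in parental cells, 101 with the vector, 125 in the exon 3 line and 71.8 in the exon 2 line. Here the exon 3 knockout was highest and the exon 2 knockout lowest, opposite to Anxa3, with a log2 difference of exon 2 minus exon 3 of -0.79. Between groups these opposite shifts cancelled, and the differences were 0.02 for Anxa3 (SE 0.379, limma adjusted p = 0.982) and 0.0058 for Anxa6 (SE 0.334, limma adjusted p = 0.995). With 1 library per guide, the difference between the guides was not tested. Anxa3 lies on chr5:96793339-96845966 (plus strand) and Anxa6 on chr11:54979108-55033445 (minus strand).

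Anxa7 and Anxa11, the long-headed members, had overlapping groups. Anxa7 was at 48.5 RPKM in parental cells, 71.1 with the vector, 62.9 in the exon 3 line and 56.4 in the exon 2 line. The controls were the lowest and highest libraries, and both knockouts fell between them. Anxa11 was at 49.7 RPKM in parental cells, 41.0 with the vector, 44.5 in the exon 3 line and 45.3 in the exon 2 line, again with the knockouts inside the controls. The differences were 0.02 for Anxa7 (SE 0.313, 95% interval -0.67 to 0.71, limma adjusted p = 0.981) and -0.0092 for Anxa11 (SE 0.298, 95% interval -0.66 to 0.64, limma adjusted p = 0.992). Both lie on chromosome 14, Anxa7 at chr14:20455260-20480133 (minus strand) and Anxa11 at chr14:25842156-25886804 (plus strand), as does Anxa8 at chr14:34085981-34100571 (plus strand).

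**Figure D2:**
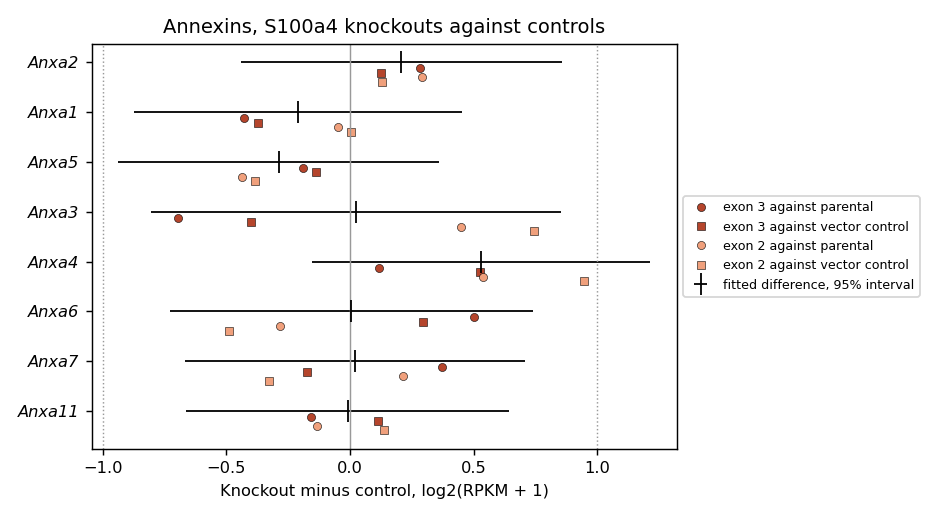
Fitted difference of knockouts minus controls for the 8 tested annexins on the log2(RPKM + 1) scale, with 95% intervals from limma; the points under each interval are the 4 single pairs of a knockout with a control, and dotted lines mark 2-fold. All 8 intervals cross 0, and Anxa4, at 0.53, lies farthest from it.

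Over the 8 tested annexins the median difference was 0.01, with a range from -0.29 to 0.53, beside a median of -0.08 over all tested genes. The median size of the difference, sign set aside, was 0.116 for the annexins and 0.404 for all tested genes, which reach down to a mean of 1 RPKM. The vector control and the parental line differed by a median size of 0.238 for the annexins and 0.361 for all tested genes. Between the knockouts the sizes were 0.314 and 0.319. No annexin was 2-fold apart between the controls, where 8.53% of tested genes were, and 1 of 8, Anxa3, was so between the knockouts. At the median, then, the annexins' knockout differences were smaller than the differences between lines of 1 group. A difference between means of 2 libraries varies less than one between single libraries, so these sizes are not on an equal footing. In 4 of 8 the knockout difference was larger than that between the controls, and in 3 of 8 larger than both within-group differences. The same counts over all tested genes were not made. Both knockouts lay above both controls for 2 of 8, Anxa2 and Anxa4, as for 21.9% of tested genes, and below both for 1 of 8, Anxa5, as for 31.2%.

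**Figure D3:**
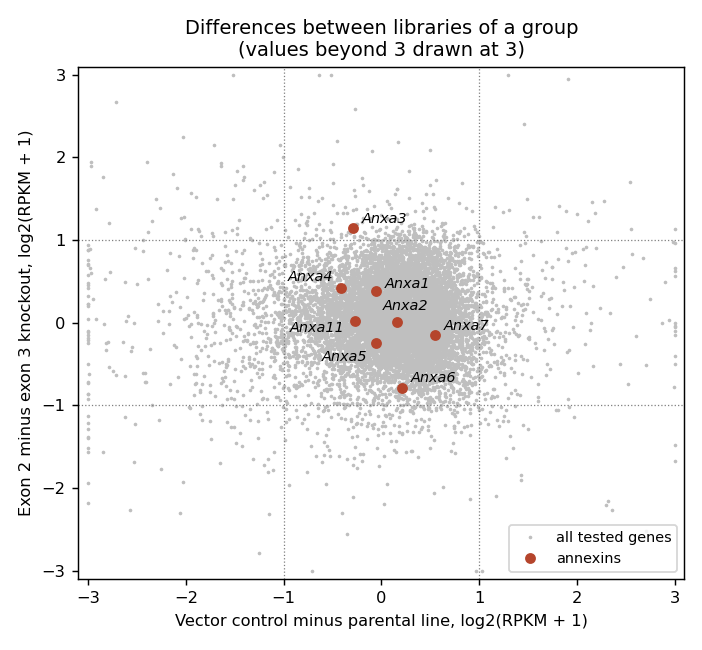
Difference between the controls (vector control minus parental line, horizontal axis) against that between the knockouts (exon 2 minus exon 3, vertical axis) for every tested gene in grey and the 8 tested annexins in red, on the log2(RPKM + 1) scale, with dotted lines at 2-fold and values beyond 3 drawn at 3. Anxa3, at 1.14, is the annexin outside the 2-fold lines of the vertical axis, and Anxa6 follows at -0.79.

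Base composition moved with the comparison. Across 10773 tested genes with an annotated coding sequence, the knockout difference correlated with coding GC content (Pearson's r = 0.458, across genes, which share the 4 libraries and are not independent replicates). The median coding GC was 53.0% over these genes, and 7 of the 8 annexins lay below it, from 46.0% in Anxa1, with Anxa11 above it at 57.0%. Correcting each library for GC and coding length moved the median over all tested genes from -0.08 to 0.048. After this correction, 7 of 8 annexin differences were higher than before and 6 of 8 were positive. How many of all tested genes rose or were positive was not counted. Anxa4 then stood at 0.60, Anxa3 at 0.37 and Anxa5 at -0.08, and Anxa1 changed sign to 0.23. The part of base composition in these values was not tested.

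Relative to the annexins, the S100 genes as a group were lower in both knockouts with S100a4 counted in, and overlapped between the groups without it. The summed level of the 16 S100 genes was 3.48 times that of the annexins in the parental line, 3.49 times in the vector control, 2.61 times in the exon 3 knockout and 2.34 times in the exon 2 knockout. Without S100a4 these ratios were 2.51, 2.19, 2.28 and 2.04, and the exon 3 knockout lay between the controls. Anxa2 was at 0.299 and 0.252 of the level of S100a4 in the parental and vector control lines. In the exon 3 and exon 2 knockouts it was at 1.15 and 1.18 of it. S100a4 is the gene that was cut, at a difference of -1.88 (SE 0.311, limma adjusted p = 0.0731), so this ratio says little about Anxa2 itself.

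Of 5 further ratios of annexins to S100 genes, 3 overlapped between the groups and 2, both over S100a6, did not. Of single tested genes, 21.9% had both knockouts above both controls and 31.2% had both below. The plan held only the ratios over S100a10 and S100a11. All other ratios between genes given here were added, including those over S100a4 and S100a6. Anxa2 over S100a10, per length, was 1.20 in parental cells, 1.12 with the vector, 1.10 in the exon 3 line and 1.22 in the exon 2 line, with the knockouts at both ends. S100a10, the light chain of the Anxa2 complex, had 893, 1067, 1186 and 1073 RPKM in that order, a difference of 0.21 (SE 0.299, limma adjusted p = 0.723), the same to 2 decimals as that of Anxa2 and likewise below 0, at -0.047, with quantile normalization. Anxa1 over S100a11 was 6.94, 7.64, 7.47 and 5.96, lowest in the exon 2 knockout. S100a11 stood at 153, 134, 105 and 172 RPKM, with the knockouts on either side of both controls and a difference of -0.09 (SE 0.324, limma adjusted p = 0.906). Anxa5 over S100a6, the most abundant S100 gene, was 0.119, 0.139, 0.131 and 0.111, again with overlapping groups. S100a6, which binds several annexins including Anxa11, had 7927, 6562, 6297 and 6263 RPKM, with a difference of -0.20 (SE 0.318, limma adjusted p = 0.754) that was -0.063 without the parental line. Over it, Anxa2 was at 0.135, 0.182, 0.207 and 0.209 and Anxa11 at 0.00627, 0.00625, 0.00706 and 0.00723, higher in both knockouts than in both controls; neither ratio was tested.

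**Figure D4:**
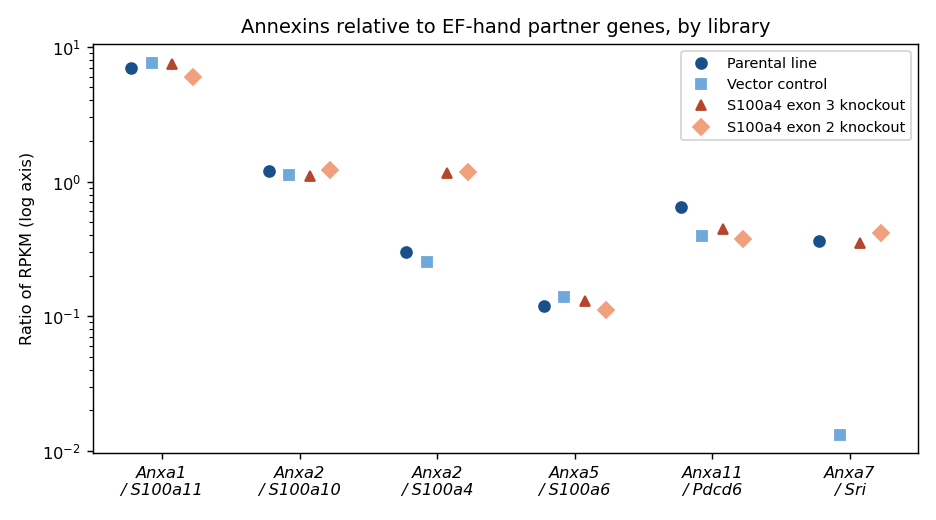
Ratio of each annexin to a known partner in each library, from RPKM and therefore per length, on a log axis, with 1 point per library. Anxa2 over S100a10 stays between 1.10 and 1.22, and Anxa7 over Sri drops to 0.0132 in the vector control. Anxa2 over S100a4 is higher in both knockouts, where S100a4 is the gene that was cut.

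The penta-EF-hand proteins are the calcium sensors of the long-headed annexins, sorcin (Sri) binding Anxa7 and Pdcd6 (ALG-2) binding both Anxa7 and Anxa11. Sri was at 134 RPKM in parental cells, 5379 with the vector, 180 in the exon 3 line and 136 in the exon 2 line. The vector control stood 40.1-fold above the parental line, and Anxa7 over Sri was 0.361, 0.0132, 0.350 and 0.416 in the same order. The fitted difference of Sri, -2.44 (SE 1.16, limma adjusted p = 0.275), rested on that library, and was 0.22 without it. Pdcd6 had 76.5, 105, 99.9 and 121 RPKM, a difference of 0.29 (SE 0.307, limma adjusted p = 0.617), and Anxa11 over Pdcd6 was highest in parental cells, at 0.650, and between 0.375 and 0.445 in the others. Pef1, which pairs with Pdcd6, had 43.8, 63.9, 86.1 and 91.9 RPKM, with both knockouts above both controls and a difference of 0.74 (SE 0.310, limma adjusted p = 0.234). Of the 4 genes of this list all were tested, and 2 lay below and 2 above 0 with a median of -0.13, which became 0.37 without the vector control.

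Over all partner lists, which also hold Anxa9, Anxa10, Anxa13 and genes of phospholipid biology, 66 genes were in the table and 47 were tested. Of the 47, 0 passed an adjusted p of 0.05 (limma). An unadjusted p under 0.05 was found for 10, which is 21.3% of the listed genes beside 19.1% of all tested genes. Of the 10, 8 were lower (13.8% of all tested genes) and 2 higher (5.32%). S100a4, the gene that was cut, is among the 8. Of the 13 membrane repair genes, the machinery that Anxa1, Anxa2 and Anxa6 serve at a torn membrane, 11 were tested, 7 below 0 and 4 above, with a median of -0.39. That median was -0.018 after the GC and length correction, -0.25 without the parental line and -0.12 without the exon 2 line. Myoferlin (Myof), a calcium-dependent fusion protein, was at 140 RPKM in parental cells, 101 with the vector, 62.9 in the exon 3 line and 78.8 in the exon 2 line, a difference of -0.75 (SE 0.311, limma adjusted p = 0.229) that was -0.13 after the GC and length correction. Caveolin 1 (Cav1), the coat protein of caveolae, was at 53.8, 100.02, 24.3 and 47.3 RPKM, with the vector control highest and a difference of -1.09 (SE 0.397, limma adjusted p = 0.190). For Cav1 it was -0.62 without the exon 3 line and -0.65 without the vector control. Both genes had lower values in both knockouts than in both controls. Ahnak, a giant scaffold protein of the Anxa2 and S100a10 complex, had 128, 82.2, 53.4 and 109.7 RPKM with overlapping groups, and its difference of -0.42 (SE 0.383, limma adjusted p = 0.566) turned to 0.58 after the GC and length correction. The summed level of the mesenchymal markers was highest in parental cells, as were Myof and Ahnak but not Cav1, and its part in these values was not tested.

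Of the partners of Anxa6, 2 of 2 were lower in the knockouts at an unadjusted p under 0.05, as were 13.8% of all tested genes. Rasa1, a Ras GTPase-activating protein, was at 25.8 RPKM in parental cells, 10.2 with the vector, 3.23 in the exon 3 line and 7.25 in the exon 2 line, a difference of -1.55 (SE 0.461, limma adjusted p = 0.139). For Rasa1 it was -0.81 after the GC and length correction, -0.93 without the parental line and -2.18 without the vector control. Prkca, protein kinase C alpha, was at 21.5, 15.3, 6.98 and 7.60 RPKM, a difference of -1.21 (SE 0.328, limma adjusted p = 0.130). In both genes the knockouts lay below both controls, as for 31.2% of all tested genes. Anxa6 itself had the exon 3 knockout highest, the library in which Rasa1 was lowest. For Prkca the counting intervals of the knockouts overlapped.

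The remaining lists held genes of phospholipid and plasminogen biology and further annexins. Cytosolic phospholipase A2 (Pla2g4a), the enzyme that Anxa1 is known to inhibit, was at 20.4 RPKM in parental cells, 29.1 with the vector, 10.6 in the exon 3 line and 14.6 in the exon 2 line, a difference of -0.92 (SE 0.334, limma adjusted p = 0.190) that was -0.22 after the GC and length correction. It was the only tested gene of the 4 in its list, since the formyl peptide receptors, through which secreted Anxa1 acts, had means under 1 RPKM. Of the 17 genes of phosphatidylserine exposure and calcium-dependent phospholipid binding, 12 were tested, 6 below and 6 above 0, with a median of -0.06. The scramblase Plscr4 stood at 3.82, 3.25, 0.782 and 0.862 RPKM and was at least 2-fold lower in all 4 pairs, with a difference of -1.31 (SE 0.369, limma adjusted p = 0.136). Copine 3 (Cpne3) was at 18.1, 16.7, 6.70 and 11.3 RPKM, a difference of -0.92 (SE 0.343, limma adjusted p = 0.194) that was -0.30 after the same correction and -0.59 without the exon 3 line. Gas6, a ligand that bridges phosphatidylserine to TAM receptors, was at 16.02, 16.7, 85.0 and 21.3 RPKM, so that its difference of 1.33 (SE 0.507, limma adjusted p = 0.202) rested on the exon 3 knockout and was 0.36 without it. Of the 7 genes of plasminogen activation at the cell surface, 6 were tested, 5 below and 1 above 0, with a median of -0.15, at -0.023 without the parental line, and an unadjusted p under 0.05 in none. Among other annexins, Anxa9 was at 3.27, 3.83, 2.09 and 2.27 RPKM, a difference of -0.51 (SE 0.356, limma adjusted p = 0.442), and Anxa10 and Anxa13 reached at most 0.111 RPKM.

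The genes whose pattern over the 4 libraries was most like that of Anxa4, the member with the largest difference, were found by the Euclidean distance between log2(RPKM + 1) values centred on each gene's mean. Myl12b, a regulatory light chain of myosin, was nearest at a distance of 0.0478, with 127 RPKM in parental cells, 97.0 with the vector, 134 in the exon 3 line and 183 in the exon 2 line. Tcf7, a transcription factor of the Wnt pathway, followed at 0.0587 and Ano10, of the anoctamin family, at 0.0732. Likeness over only 4 libraries is a weak tie. At a wider limit than these distances, 0.3, 195 of 10870 genes lay near Anxa4.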

How the data were processed

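Total RNA of 4 mouse mammary tumor lines was sequenced; the labels name a stranded total RNA kit and the methods a TruSeq RNA kit. The authors deposited 1 table of RPKM per gene with 1 column per library. The submitters' processing notes name CASAVA 1.8, GSNAP and GRCm38; the counting rule and gene model are not given in the sources used here. RPKM is normalized for length and depth, not for RNA composition. Whole reads were recovered from the deposited RPKM (tolerance 0.001 reads) for 99.99% of genes above 0; the lengths these imply are among GENCODE M21 lengths for 60.8% of tested genes, and counting intervals (95%) and limits (3 reads) cover counting error only. All values columns were mapped to a library (0 left over).

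Libraries were grouped by title into 2 controls and 2 knockouts. Genes with a mean of at least 1 RPKM (10871 of 21090) were fitted as log2(RPKM + 1) with limma 3.58.1 (R 4.3.3, intensity trend), a call being a Benjamini-Hochberg adjusted p under 0.05. The moderated fit used a median of 11.3 degrees of freedom, 9.32 of them from the prior. Coding GC and length were known for 99.1% of tested genes. Tables and figures were made in Python 3.11.15, and the fit was tested on simulated data. The genes named were the annexins, S100a4, S100a6, S100a10, S100a11, Sri, Pdcd6 and Ahnak, partners that were 2-fold apart in all 4 pairs or had an unadjusted p under 0.05, and the 3 genes most like Anxa4. Anxa9, Anxa10, Anxa13 and the markers were added as listed genes; 1 immune marker is not reported here. The members and lists were chosen with earlier results of these data known. Alternatives were another pseudocount, filters, scalings, limma without a trend or robust, voom on the recovered reads, a GC and length correction, other fold limits and leaving out each library.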

Additional observations from a re-analysis of the deposited data

Results flagged for a closer look

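Anxa3, Anxa6 and S100a11, among the genes named by rule, stood out because the knockout lines fell on opposite sides of both control lines, so that the guides gave opposite differences under the same contrast. The log2 difference of the exon 2 minus the exon 3 knockout was 1.14 for Anxa3, -0.79 for Anxa6 and 0.70 for S100a11. Of the other listed genes tested, S100a13 at -1.24, S100a1 at -0.85 and Cpne1 at 0.82 had the same pattern, and these 3 are named after their values were seen. The difference between the guides was not tested, since each has 1 library, and 7.88% of tested genes had this pattern. The titles name different cell numbers for these libraries, and guide and cell number cannot be told apart.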

How the results depend on the processing

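No paired analysis was possible because the labels carry no replicate numbers and each line is different. The count of annexins past the adjusted threshold was 0 under every alternative run, and their lowest adjusted p over the alternatives was 0.179. Of 104 alternative values for single annexins 90 kept their direction and 14 were reversed, and of 207 for single partners 188 kept direction and call, 8 were reversed and 11 newly passed the threshold. The cause of these changes was not tested. Reversed values under the GC and length correction were 0.23 for Anxa1, 0.12 for S100a11 and 0.58 for Ahnak. Under quantile normalization they were -0.049 for Anxa2, -0.18 for Anxa3, -0.12 for Anxa6, -0.048 for Anxa7 and -0.047 for S100a10, and under median ratio scaling, which moved the median of all genes from -0.08 to 0.0052, 0.082 for Anxa11 and 0.0075 for S100a11. With a library left out, Anxa3 ran from -0.55 (without the exon 2 knockout) to 0.60 (without the exon 3 knockout) and was -0.12 without the vector control, and Anxa6 ran from -0.39 (without the exon 3 knockout) to 0.40 (without the exon 2 knockout) and was -0.10 without the parental line. Anxa7 ran from -0.25 (without the parental line) to 0.29 (without the vector control) and was -0.06 without the exon 3 knockout. Anxa11 ran from -0.14 (without the vector control) to 0.13 (without the parental line) and was 0.0031 without the exon 3 knockout. S100a11 ran from -0.44 (without the exon 2 knockout) to 0.27 (without the exon 3 knockout) and was 0.010 without the parental line, Ahnak ran from -0.93 to 0.097 in the same 2 settings, and Sri from -5.10 (without the parental line) to 0.22 (without the vector control).

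S100a4, at an adjusted p of 0.0731, passed the threshold with quantile normalization (0.0357), with a mean of at least 5 RPKM (0.0182) and with a robust prior (0.00127), and without either control (at most 0.000366). Sri and Cav1 passed it without the parental line, Rasa1 and Prkca without the vector control, and Gas6 without either. The count of all genes lower in the knockouts, 2 in limma as fitted, was 1 with a pseudocount of 0.1 or quantile normalization, 0 with median ratio scaling, no filter, voom or the GC and length correction, 25 with a mean of at least 5 RPKM and 242 with a robust prior, and 1 (without the exon 2 knockout) to 550 (without the parental line), with 335 without the vector control. The count higher, 0, was 7 with a mean of at least 5 RPKM, 43 with a robust prior and 1 (without the exon 3 knockout) to 238 (without the parental line). At least 2-fold lower in all pairs were 188 genes, and 330 with a pseudocount of 0.1, 94 with quantile normalization, 77 with the GC and length correction, 798 at 1.5-fold, 16 at 3-fold and 351 to 823 with a library left out. For 2-fold higher the 29 became 44, 51, 18, 257 and 1 in that order, and 102 to 235 with a library left out.

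The annexin median, 0.01, was 0.11 with median ratio scaling, -0.087 with quantile normalization and 0.17 with the GC and length correction, and -0.0088 to 0.039 with a library left out. With that correction the median over all tested genes also rose, from -0.08 to 0.048. The S100 median, -0.07, was 0.019 with median ratio scaling and -0.15 with the correction, and -0.36 to -0.056 with a library left out. The penta-EF-hand median, -0.13, was 0.29 with a mean of at least 5 RPKM and -0.34 to 0.37 with a library left out. The membrane repair median, -0.39, was -0.32 with median ratio scaling, -0.30 with no filter, -0.32 with a mean of at least 5 RPKM, -0.018 with the correction and -0.38 to -0.12 with a library left out. The plasminogen median ran from -0.22 to -0.02 with a library left out. The phosphatidylserine median, -0.06, was 0.030 with median ratio scaling, 0.020 with no filter, 0.051 with the correction and -0.26 to 0.11 with a library left out. On simulated data with 2 libraries per group, noise was drawn from each gene's own fitted spread. There the test called 0% of genes made to differ by 1 on the log2 scale. It called 30% of those made to differ by 2 and 70% of those made to differ by 4. The number of calls in the real data changed with the setting, and these shares are for the main fit only. When a library is left out, 1 library remains in its group and is assumed to vary like the other group.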

Other observations

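Genes beside Sri on chromosome 5 were also high in the vector control, a pattern chosen after its values were seen. The 9 tested genes within 1 Mb of Sri had a median log2 difference of vector control minus parental line of 4.24, with a range from 2.61 to 5.48. Abcb1b, a drug efflux pump, was at 10.6 RPKM in parental cells, 443 with the vector, 7.45 in the exon 3 line and 7.14 in the exon 2 line. Crot, a peroxisomal carnitine transferase, was at 14.2, 674, 7.29 and 11.3 RPKM in the same order. Dbf4, an activator of DNA replication, was at 50.3, 1985, 32.0 and 71.7 RPKM. The vector control was the highest library for each of these genes.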
